A study of Bos grunniens and Bos grunniens x Bos taurus with 6 samples.

Results

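Myoglobin and 9 genes of the hypoxia pathway were followed in a back muscle, longissimus dorsi, taken from yak and from cattle-yak. They are MB, HIF1A, EPAS1, HIF1AN, EGLN1, EGLN3, VEGFA, ANKRD37, BNIP3 and VHL, 10 of the 31044 genes in the deposited transcript table. Each was taken as the gene identifier that held most pooled reads under its symbol, and all transcripts of that identifier were summed in each library. The yak group (Bos grunniens) and the cattle-yak group (the hybrid of Bos grunniens and Bos taurus) had 3 libraries each. Both were untreated muscle as far as the labels say, and the sources used here give no sex, age or altitude. RNA was extracted with TRIzol and sequenced as full-length cDNA after PCR on a nanopore instrument. The labels do not tell whether the 3 libraries of a group stem from different animals. The p-values therefore measure only the spread between these libraries, which may be technical.

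The libraries held between 2350851 and 2769106 counted reads. Levels below are counts scaled to the library total (CPM) after TMM scaling, which corrects each library for a few genes that take a large share of its reads. Fold changes are log2 values of cattle-yak over yak with their standard error (SE), from edgeR's quasi-likelihood test over 7504 genes, and a gene was called at a Benjamini-Hochberg adjusted p under 0.05. In that fit 484 genes (6.45%) were higher in cattle-yak and 464 (6.18%) were lower, 12.6% in all. Over all genes the log2 fold change had a median of 0.02. With library size alone as the scaling it was 0.18, and 676 genes were then higher and 296 lower. All 10 skeletal fibre markers, among them ACTA1, MYH2, TTN and MYLPF, were tested, and their summed level was 235959 to 271173 CPM in yak and 190255 to 219929 CPM in cattle-yak.

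Muscle cells store oxygen on myoglobin, a haem protein related to haemoglobin. The oxygen-sensing pathway turns on the alpha subunits of the hypoxia-inducible factors (HIF), transcription factors that are made and destroyed continuously when oxygen is plentiful. Prolyl hydroxylases mark the alpha subunits for the ubiquitin ligase that contains VHL, and an asparaginyl hydroxylase blocks their transcriptional activity. When oxygen falls, the hydroxylases slow down and the stabilised factors raise genes for glycolysis, blood vessel growth and the removal of mitochondria. Most of this control acts on protein, which was not measured here.

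Of the 10 genes, 8 passed the filter on low counts. MB, HIF1AN and ANKRD37 fell in cattle-yak, none rose, and the other 5 did not pass the test (edgeR adjusted p from 0.0537 to 0.863). Of all genes tested, 6.18% were lower and 6.45% higher. The library values of 4 genes did not overlap between the groups, those of MB, HIF1AN, EGLN3 and ANKRD37, beside 33% of all genes tested. The median log2 fold change of the 8 genes was -0.42. ANKRD37 and EGLN3 passed the filter only through the yak libraries, where they were higher, so the counts and the median over the 8 are a description and no support for a shift of the pathway.

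**Figure D1:**
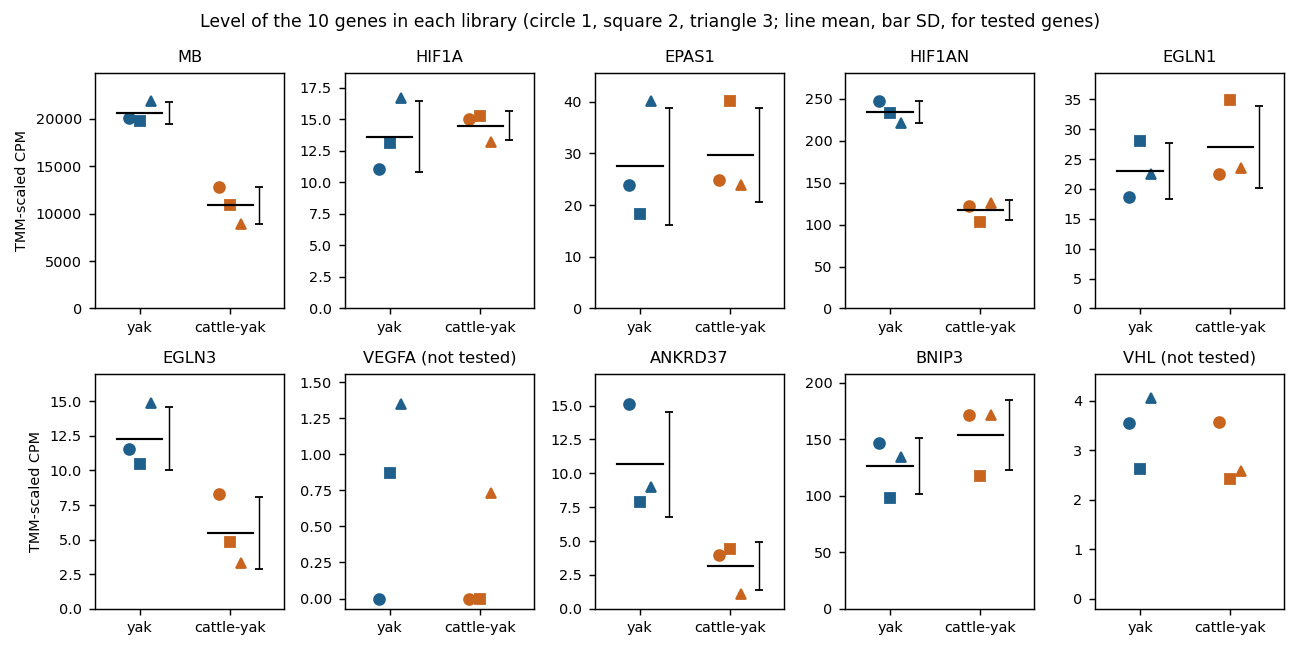
TMM-scaled CPM (vertical axes, each on its own scale and including 0) of the 10 genes in the 3 yak (blue) and 3 cattle-yak (orange) libraries, with a circle for library 1, a square for 2 and a triangle for 3. Lines are means and bars SD for the 8 tested genes. MB, HIF1AN, EGLN3 and ANKRD37 have every cattle-yak point under every yak point.

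Myoglobin itself (MB, ENSBGRG00000011406) had 45254, 45213 and 48568 reads in the yak libraries 1 to 3, and 32226, 27208 and 24153 in cattle-yak 1 to 3. These were 1.93%, 1.81% and 2.01% of all counted reads in yak, against 1.35%, 1.15% and 0.872% in cattle-yak. Every cattle-yak library was under every yak library, and cattle-yak 3 was the lowest. On the scaled level MB was 20074, 19747 and 21879 CPM in yak and 12756, 10929 and 8868 CPM in cattle-yak. The mean fell from 20566 ± 1148 CPM to 10851 ± 1945 CPM (SD, n = 3 each), so that yak had 1.90 times the level of cattle-yak. The log2 fold change was -0.92 ± 0.17 (SE, edgeR adjusted p = 0.00346). The difference was larger than the spread between libraries and was called in each of the 17 alternative fits that gave a value, with log2 fold changes from -1.06 to -0.76 and an adjusted p of at most 0.0163. In bulk muscle, fewer fibres rich in myoglobin and less myoglobin RNA per fibre cannot be told apart.

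The muscle markers did not move one way. Of the 10 skeletal fibre markers, TTN and DES were higher, ACTA1 and MYH2 were lower, and 6 did not pass. The name rested on 1.57% of the reads for ACTA1, 53.8% for MYH2, 61.2% for DES and 88.2% for TTN. The median log2 fold change of the 10 markers was -0.08. Their summed level, in which ACTA1 weighs most, was lower in every cattle-yak library than in every yak library. The MB level relative to the mean of these markers was 1.29, 1.29 and 1.22 log2 units in yak and 0.50, 0.24 and -0.07 in cattle-yak. The means were 1.27 ± 0.04 and 0.22 ± 0.29 (SD, n = 3 each), a difference of -1.04 with groups that did not overlap. A two-sided exact permutation test gave p = 0.1, the smallest that 3 against 3 libraries allow.

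Slow fibres are the oxidative fibres that are known to hold most myoglobin. Of 9 slow fibre markers tested, MYOZ2, a protein of the Z-disc, rose (0.80 ± 0.19, edgeR adjusted p = 0.0133), none fell and 8 did not pass. Their summed level was 20295 to 28281 CPM in yak and 23878 to 26702 CPM in cattle-yak, so the groups overlapped. Of 7 fibroblast markers tested, LUM, COL3A1 and COL1A2 fell with MB and 4 did not pass, among them DCN, with 221 ± 39.2 and 230 ± 69.3 CPM (log2 fold change 0.06 ± 0.23, edgeR adjusted p = 0.891). The sum over the list was 484 to 594 CPM in yak and 250 to 460 CPM in cattle-yak. The part of these markers in the result for MB was not tested. Markers of red blood cells, which would carry haemoglobin RNA into the muscle, were close to absent, with a sum of 4.05 to 26.6 CPM in yak and 0.80 to 2.37 CPM in cattle-yak, and ALAS2 and SLC4A1 were among those matched to no gene. Only 3 of 8 endothelial markers passed the filter, none of them was called, and the sum was 45.4 to 62.5 CPM in yak and 49.5 to 98.4 CPM in cattle-yak. The 2 macrophage markers tested were not called either, and the sum over the list was 6.99 to 27.0 CPM in yak and 17.0 to 66.8 CPM in cattle-yak. Among the markers too low for the filter, the endothelial marker VWF had 3, 3 and 0 reads in the yak libraries and 9, 26 and 18 in those of cattle-yak. The macrophage marker CD163 had 1, 0 and 3 against 7, 25 and 27. Both were without overlap, and both passed in the fit with no filter on low counts (edgeR adjusted p = 0.000538 and 1.37e-05). In that fit MB had an adjusted p of 1.88e-07 in place of 0.00346, and the median over all genes was 0.24. Its p-values can therefore not be set beside those of the reported fit. VWF and CD163 were picked after their values were seen, and their part in the results here was not tested.

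MB reads were spread over 400 transcript models, of which 1 was a reference transcript with 4 reads. The others were assembled from the long reads, and 317 of the 400 had under 10 reads. The leading pair of models held 95.8% of all MB reads. Models read in both groups numbered 255, with 101 read in yak alone (none with over 6 reads) and 44 in cattle-yak alone (none with over 10). The number of models seen per library was 238, 225 and 226 in yak and 190, 177 and 154 in cattle-yak, where MB had fewer reads.

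The leading MB transcript (TALONT000813349) held 87.1%, 86.9% and 86.8% of the MB reads in yak, against 86.2%, 82.7% and 84.0% in cattle-yak. Exact Clopper-Pearson 95% intervals, which cover counting error only, ran from 86.8% to 87.4% in yak 1, from 85.8% to 86.6% in cattle-yak 1 and from 82.2% to 83.2% in cattle-yak 2. The mean share was 86.9% ± 0.18 in yak against 84.3% ± 1.78 in the hybrid (SD, n = 3 each), which is -2.64 percentage points apart. The groups did not overlap, although cattle-yak 1 lay close to the yak libraries and the cattle-yak libraries differed among themselves by more than counting error.

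The second MB transcript (TALONT000941556) held 8.98%, 8.99% and 9.52% in yak and 9.82%, 12.4% and 10.7% in cattle-yak. Its mean share was 9.16% ± 0.31 in yak and 11.0% ± 1.33 in cattle-yak, a difference of 1.84 points. Both shares were separated between the groups with p = 0.1 in two-sided exact permutation tests, the smallest p possible, and 0.375 after adjustment over 15 transcripts of these genes. All other MB models together held 3.90%, 4.11% and 3.71% of the reads in yak, against 3.97%, 4.86% and 5.30% in cattle-yak.

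**Figure D2:**
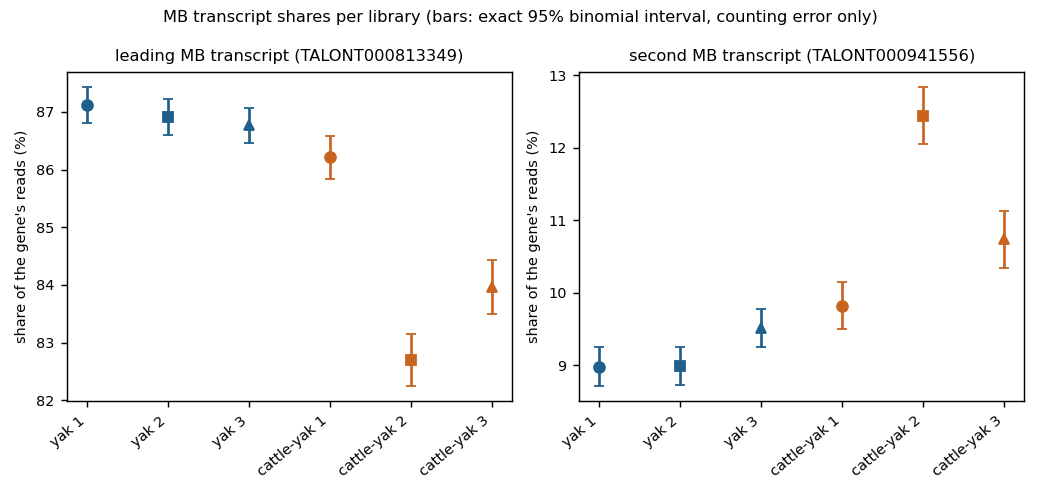
Share of MB reads (percent, vertical axes that do not start at 0) in the leading and the second MB transcript for each library, with exact 95% binomial intervals for counting error. The leading share is 86.8% to 87.1% in yak and 82.7% to 86.2% in cattle-yak, and cattle-yak 2 stands lowest there and highest in the second panel.

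Both transcripts fell in level. The leading one fell by 0.95 ± 0.16 on the log2 scale (SE, edgeR adjusted p = 0.00139 over 15804 transcripts), and the second one by 0.65 ± 0.17 (adjusted p = 0.0187). The third (TALONT000810887), had -0.37 ± 0.17 and did not pass (adjusted p = 0.157). Of 22 MB transcripts tested, 6 were lower, none was higher and 16 did not pass, beside 8.86% of all transcripts lower. The median log2 fold change of the 22 was -0.72, that of all transcripts was 0.00, and 21 of the 22 values were negative. Some of the 22 passed the filter on low counts only through the yak libraries, where they were higher. Among these were TALONT000815371, TALONT000814881 and TALONT000817442, the last of which is among the 6 calls. All 22 also divide the reads of the MB gene, which itself fell. These counts and the median are therefore a description and no support for separate falls. Of the 6 calls 3 remained when library size alone set the scaling, and 3 without yak 3. The test of transcript usage asks whether the transcripts of a gene change unequally. It called 157 of 1821 genes (8.62%) and did not call MB (edgeR adjusted p = 0.456). Without the minimum share of 5% for a transcript, MB passed (adjusted p = 0.0176).

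The genes whose profiles over the 6 libraries lay nearest to MB were taken from the 857 other tested genes with a mean of at least 100 CPM, by the root mean square difference of centred log2 CPM. The median of that difference over the 857 genes was 0.49. MYBPC1, the slow-type myosin-binding protein C of skeletal muscle, was nearest at 0.14, with 5305, 5709 and 5563 CPM in yak and 2782, 2507 and 2433 CPM in cattle-yak. PCYOX1, a prenylcysteine oxidase, and SKP1, a subunit of a ubiquitin ligase, followed at 0.16 each. Next came HMGN3, a nucleosome-binding protein whose name rests on 25.0% of its reads, and RAB13, a small GTPase, at 0.17 each. All of them were lower in every cattle-yak library than in every yak library, which the choice by nearness to MB favours. Their log2 fold changes lay between -1.14 for PCYOX1 and -0.65 for RAB13.

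**Figure D3:**
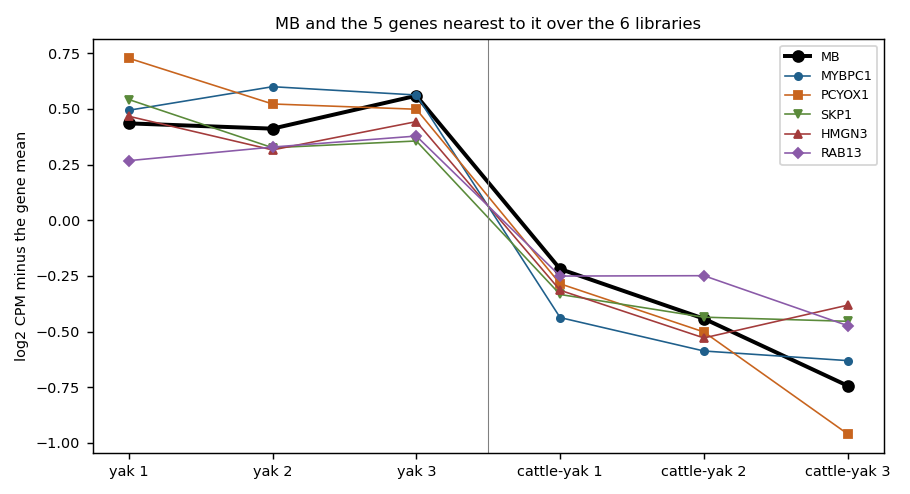
Centred log2 CPM (vertical axis, each gene's mean over the 6 libraries set to 0) of MB (thick black line) and the 5 genes nearest to it, by library; the lines join libraries of no order. All 6 genes are above their mean in the 3 yak libraries and under it in the 3 cattle-yak libraries.

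HIF1A (TALONG000121243) encodes the alpha subunit of the HIF-1 factor. Its identifier is an assembled gene of 4 transcripts, and another identifier held a further 34 reads with the name. HIF1A had 25, 30 and 37 reads in the yak libraries and 38, 38 and 36 in those of cattle-yak, or 11.1, 13.1 and 16.7 CPM against 15.0, 15.3 and 13.2 CPM. The yak range enclosed the cattle-yak range. The means were 13.6 ± 2.82 and 14.5 ± 1.12 CPM (SD, n = 3 each) and the log2 fold change was 0.09 ± 0.27 (SE, edgeR adjusted p = 0.863), with a sign that turned without yak 1 (-0.057) and with no filter on low counts (-0.031).

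The leading HIF1A transcript (TALONT001203182) held 88.0%, 93.3% and 81.1% of the HIF1A reads in yak, against 73.7%, 78.9% and 77.8% in cattle-yak. The groups did not overlap, but each share rests on 38 reads or fewer. The exact intervals were wide, from 68.8% to 97.5% in yak 1 and from 56.9% to 86.6% in cattle-yak 1, and the two-sided exact permutation test gave p = 0.1 (0.375 adjusted over the 15 transcripts).

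EPAS1 (ENSBGRG00000006847) encodes the alpha subunit of a second HIF factor, the one abundant in endothelial cells. The name rests on 93 of the 413 reads of its identifier (22.5%), and the leading transcript (TALONT001117965), with 59.3% of the reads, carries no symbol. EPAS1 had 54, 42 and 89 reads in the yak libraries and 63, 100 and 65 in those of cattle-yak. On the scaled level these were 24.0, 18.3 and 40.1 CPM and 24.9, 40.2 and 23.9 CPM, with 1 high library in each group and full overlap. The log2 fold change was 0.11 ± 0.30 (SE, edgeR adjusted p = 0.850). The sign turned without yak 2 (-0.14), without cattle-yak 2 (-0.16) and with no filter on low counts (-0.023), and without yak 1 the value was -0.0002. The rows of this identifier with the EPAS1 name gave 0.41 (edgeR adjusted p = 0.578). Another identifier held a further 30 reads with the name, and all rows with the name gave 0.21 (adjusted p = 0.767).

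HIF1AN (ENSBGRG00000024908) encodes the asparaginyl hydroxylase that blocks the activity of the HIF alpha subunits. It had 559, 534 and 492 reads in the yak libraries and 309, 258 and 342 in those of cattle-yak, or 248, 233 and 222 CPM against 122, 104 and 126 CPM. The 3 cattle-yak libraries lay close together, far under the 3 yak libraries. The mean fell from 234 ± 13.2 to 117 ± 11.8 CPM (SD, n = 3 each). On the log2 scale the change was -0.999 ± 0.157 (SE, edgeR adjusted p = 0.00132). Yak had 1.999 times the level of cattle-yak.

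The reference transcript of HIF1AN (ENSBGRT00000045991) held 85.5%, 86.0% and 86.6% of the HIF1AN reads in yak, against 80.9%, 78.3% and 80.7% in cattle-yak. Its mean share was 86.0% ± 0.54 and 80.0% ± 1.45, a difference of -6.05 points between groups that did not overlap (two-sided exact permutation p = 0.1, adjusted 0.375). That transcript fell by 1.09 ± 0.18 on the log2 scale (edgeR adjusted p = 0.000881). The assembled HIF1AN transcripts alone had -0.53 (edgeR adjusted p = 0.107) and lost the call, while the reference transcript alone kept it (-0.89, adjusted p = 0.00187 in a fit of reference transcripts). Over the other alternative fits HIF1AN was called, with log2 fold changes from -1.11 to -0.84.

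EGLN1 (ENSBGRG00000018605) encodes the main prolyl hydroxylase of the HIF alpha subunits. It had 42, 64 and 50 reads in the yak libraries and 57, 87 and 64 in those of cattle-yak, which were 18.6, 28.0 and 22.5 CPM against 22.6, 34.9 and 23.5 CPM. The groups overlapped and cattle-yak 2 was the highest library. The log2 fold change was 0.23 ± 0.25 (SE, edgeR adjusted p = 0.60). Its leading transcript (TALONT000617432) held 55.7% ± 5.42 of the EGLN1 reads in yak against 58.4% ± 9.85 in cattle-yak (SD, n = 3 each), also with overlap.

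EGLN3 (ENSBGRG00000009029) encodes another prolyl hydroxylase, itself a known target of HIF. It had 26, 24 and 33 reads in the yak libraries and 21, 12 and 9 in those of cattle-yak, or 11.5, 10.5 and 14.9 CPM against 8.31, 4.82 and 3.30 CPM. Every cattle-yak library was under every yak library, with cattle-yak 1 nearest to them. The means were 12.3 ± 2.29 and 5.48 ± 2.57 CPM (SD, n = 3 each). The log2 fold change of -1.16 ± 0.37 just missed the threshold (SE, edgeR adjusted p = 0.0537). EGLN3 passed it in 6 of 16 alternative fits, among them those without cattle-yak 1 (-1.60, adjusted p = 0.0163) and with limma-voom (0.0457). It also passed with no filter on low counts (0.0209), with the rows of its symbol only (0.0374) and with assembled transcripts only (0.0341). The other 10 missed the threshold, among them the DESeq2 test (adjusted p = 0.106), library size alone (0.101) and the fits without yak 3 (0.171) or cattle-yak 3 (0.149).

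Within EGLN3, the transcript with most reads (TALONT000239086, 69.6% of them) fell by 1.63 ± 0.39 on the log2 scale (SE, edgeR adjusted p = 0.00983 over all transcripts tested). It had 16, 20 and 28 reads in the yak libraries and 9, 7 and 7 in those of cattle-yak, with no overlap. This transcript passed the filter on low counts only through the yak libraries, where it was higher, so its call is a description and no support for a fall of EGLN3. Its share of the EGLN3 reads overlapped between the groups, at 76.6% ± 13.0 in yak against 59.7% ± 17.5 in cattle-yak (SD, n = 3 each).

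VHL (ENSBGRG00000013641), the substrate-binding part of the ubiquitin ligase that removes HIF alpha subunits, was too low to judge. It had 8, 6 and 9 reads in the yak libraries and 9, 6 and 7 in those of cattle-yak, 23 against 22 in all. A difference was not detectable at this depth. VEGFA (ENSBGRG00000010227), the ligand that drives blood vessel growth, was lower still, with 0, 2 and 3 reads in the yak libraries and 0, 0 and 2 in cattle-yak. A count of 0 allows up to 3 reads, or 1.28 CPM in yak 1, 1.26 CPM in cattle-yak 1 and 1.27 CPM in cattle-yak 2 before TMM scaling, so VEGFA cannot be compared here.

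ANKRD37 (ENSBGRG00000018691) encodes a small ankyrin repeat protein and is a known direct target of HIF-1. It had 34, 18 and 20 reads in the yak libraries and 10, 11 and 3 in those of cattle-yak. On the scaled level these were 15.1, 7.86 and 9.01 CPM against 3.96, 4.42 and 1.10 CPM, and the groups did not overlap. The mean fell from 10.7 ± 3.88 to 3.16 ± 1.80 CPM (SD, n = 3 each). The log2 fold change was -1.75 ± 0.46 (SE, edgeR adjusted p = 0.0241), and yak had 3.37 times the level of cattle-yak. The call rested on single libraries: it was lost without yak 1, the highest library (-1.44, adjusted p = 0.107), and without cattle-yak 3, the lowest (-1.35, adjusted p = 0.0673). The reference transcript of ANKRD37 (ENSBGRT00000034247) had 17, 7 and 14 reads in the yak libraries and 4, 5 and 0 in those of cattle-yak.

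BNIP3 (ENSBGRG00000012784) encodes a receptor on the outer mitochondrial membrane that leads mitochondria into autophagy, and is a known target of HIF-1. It had 331, 225 and 298 reads in the yak libraries and 434, 293 and 468 in those of cattle-yak, or 147, 98.3 and 134 CPM against 172, 118 and 172 CPM. The groups overlapped, and library 2 was the lowest of each. The means were 126 ± 25.2 and 154 ± 31.2 CPM (SD, n = 3 each), and the log2 fold change was 0.28 ± 0.20 (SE, edgeR adjusted p = 0.395).

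The BNIP3 name covers 80.2% of the reads of its identifier. Another 405 reads (19.8%) lie in a transcript (TALONT000649903) that the deposited description gives as a regulatory subunit of protein phosphatase 2A. That transcript held 14.8%, 28.0% and 13.8% of the reads in yak, against 14.7%, 33.4% and 19.2% in cattle-yak. It was highest in the library of each group where the BNIP3 level was lowest. The rows with the BNIP3 name alone gave 0.22 on the log2 scale (edgeR adjusted p = 0.635), and the usage test did not call BNIP3 (adjusted p = 0.579).

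**Figure D4:**
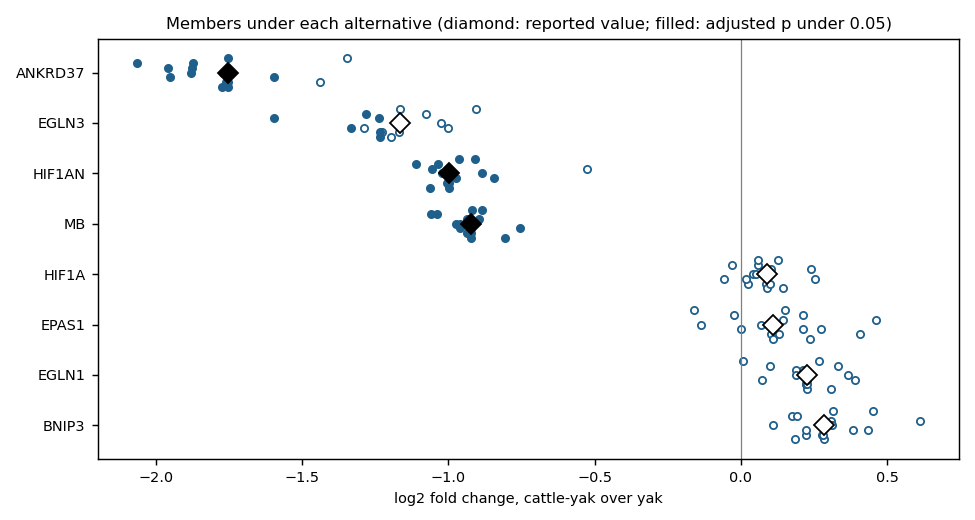
Log2 fold change of cattle-yak over yak (horizontal axis) for the 8 tested genes in the reported fit (diamonds) and in each alternative fit (circles), filled where the edgeR, DESeq2 or limma adjusted p is under 0.05. MB stays between -1.06 and -0.76 with every point filled, and HIF1A and EPAS1 have points on both sides of 0.

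Around these genes, 137 others of the same biology were looked up in 7 lists, and 116 were matched by symbol. In these lists 16 genes were called. Fewer genes were tested than matched, and the number tested is given with each list below. The counts of each list below are to be read beside the 12.6% of all genes tested that were called (6.45% higher, 6.18% lower). Of the 16 called list genes 6 passed the filter only through the group where they were higher, among them HK2, MEF2D, SLC25A28, STEAP3 and MAP1LC3A. The counts and medians below therefore describe the lists and support no shift of them. The first list held partners of oxygen sensing, such as ARNT, the beta subunit of HIF, and the chaperones of the alpha subunits. Of its 18 genes 10 were tested, and none of them was called, with a median log2 fold change of 0.09. HSP90AA1 had 0.36 ± 0.17 (SE, edgeR adjusted p = 0.178) and HSP90AB1 had 0.44 ± 0.15 (adjusted p = 0.0723). Both were above every yak library in all 3 cattle-yak libraries, beside 33% of all genes tested without overlap in either direction. For HSP90AA1 the lowest cattle-yak library had 881 CPM and the highest yak library 873 CPM.

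Known HIF targets other than the 10 genes moved in both directions. Of 40 such genes 21 were tested, 4 fell, 3 rose and 14 did not pass, with a median log2 fold change of -0.23. FAM162A, a mitochondrial protein of hypoxic cell death, had 331, 419 and 382 CPM in yak and 174, 147 and 176 CPM in cattle-yak, and fell by 1.19 ± 0.16 on the log2 scale (SE, edgeR adjusted p = 0.000506). ENO1, a glycolytic enolase, had 301, 290 and 278 CPM in yak and 117, 164 and 150 CPM in cattle-yak, and fell by 1.01 ± 0.17 (adjusted p = 0.00175). PGK1, a kinase of glycolysis that makes ATP, fell by 0.70 ± 0.17 (adjusted p = 0.0186), and TFRC, the transferrin receptor that brings iron into cells, by 1.34 ± 0.31 (adjusted p = 0.0205).

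The HIF targets that rose were PFKFB4, HK2 and INSIG2. PFKFB4 makes the activator of the glycolytic enzyme phosphofructokinase and had 19.96, 24.0 and 21.2 CPM in yak and 62.9, 48.6 and 78.2 CPM in cattle-yak (1.54 ± 0.22, SE, edgeR adjusted p = 0.000668). HK2, the hexokinase that starts glycolysis in muscle, rose by 1.67 ± 0.40 on the log2 scale (adjusted p = 0.0154). INSIG2, a brake on cholesterol synthesis, rose by 0.91 ± 0.24 (adjusted p = 0.0246). The abundant glycolytic genes GAPDH (-0.19 ± 0.17, adjusted p = 0.506) and ALDOA (-0.23 ± 0.16, adjusted p = 0.394) did not pass. FAM162A, ENO1 and PFKFB4 were called in every alternative fit. PGK1 lost its call without yak 3 (adjusted p = 0.101), and HK2, TFRC and INSIG2 each lost theirs without any 1 of several libraries (up to 0.0887): yak 1, yak 2 or cattle-yak 2 for HK2, yak 1, yak 3 or cattle-yak 3 for TFRC, and any library but cattle-yak 2 for INSIG2. INSIG2 also lost its call with the DESeq2 test (adjusted p = 0.054) and with no filter on low counts (edgeR adjusted p = 0.0791).

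Ligands and receptors of blood vessel growth were mostly too low, as VEGFA was. Of 16 such genes 4 were tested and none was called (median log2 fold change 0.09). VEGFB, a relative of VEGFA whose name rests on 29.2% of its reads, had -0.15 ± 0.31 (SE, edgeR adjusted p = 0.801), and NRP1, a co-receptor for VEGFA, had 0.56 ± 0.32 (adjusted p = 0.279). None of the 8 genes listed as globins or haemoglobin passed the filter. HBA, the alpha chain of haemoglobin, had 20, 36 and 5 reads in the yak libraries and 5, 1 and 0 in those of cattle-yak, and HBB, the beta chain, had 20, 22 and 1 in yak and 1 in each cattle-yak library. MB had at least 24153 reads in each library.

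Myoglobin carries haem, so the genes of haem synthesis and iron were read beside it. Of 27 genes 19 were tested, 3 fell, 2 rose and 14 did not pass, with a median log2 fold change of -0.13. ALAS1, the rate-limiting enzyme of haem synthesis outside red blood cells, had 207, 206 and 331 CPM in yak and 158, 142 and 105 CPM in cattle-yak. It fell by 0.88 ± 0.22 on the log2 scale (SE, edgeR adjusted p = 0.0196), and the groups did not overlap. BLVRB, a biliverdin reductase (-0.54 ± 0.16, adjusted p = 0.0445), and STEAP3, a ferric iron reductase (-1.37 ± 0.40, adjusted p = 0.0384), also fell. PCBP2, an RNA-binding protein that also carries iron (0.67 ± 0.17, adjusted p = 0.0208), and SLC25A28, the mitoferrin that imports iron into mitochondria (1.81 ± 0.48, adjusted p = 0.0259), rose. None of these 5 calls held throughout: that of ALAS1 was lost without yak 3 or without cattle-yak 2 or 3 (up to 0.0922), those of BLVRB and STEAP3 without any 1 of the 6 libraries (up to 0.143), that of PCBP2 without yak 1, 2 or 3 or cattle-yak 2 (up to 0.0953), and that of SLC25A28 without yak 2 or 3 or cattle-yak 1 (up to 0.107). Other choices cost calls too. With library size alone as the scaling, ALAS1 (edgeR adjusted p = 0.0567), BLVRB and STEAP3 lost theirs. BLVRB and STEAP3 also lost theirs with DESeq2 or limma-voom, and BLVRB with reference or assembled transcripts only (up to 0.244). PCBP2 lost its call with no filter on low counts (0.157).

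Factors reported to drive the MB gene, among them MEF2 factors, NFAT factors and calcineurin, were largely without a call. Of 15 genes 9 were tested, 1 rose and 8 did not pass, with a median log2 fold change of -0.10. MEF2D rose by 1.43 ± 0.37 (SE, edgeR adjusted p = 0.0233), from 4.27 ± 1.61 to 11.6 ± 2.86 CPM (SD, n = 3 each), a call lost without yak 1 or 3 or cattle-yak 2 or 3 (up to 0.0927). MEF2C (0.19 ± 0.15, adjusted p = 0.441) and CAMK2A, a calcium-dependent kinase (-0.56 ± 0.28, adjusted p = 0.220), did not pass.

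BNIP3 acts with adaptors of the autophagy membrane, and 13 of 14 such mitophagy genes were tested. Of these 2 rose, 1 fell and 10 did not pass (median log2 fold change -0.13). GABARAPL1, an autophagy membrane protein that binds mitophagy receptors, had 6.65, 7.86 and 7.21 CPM in yak and 36.4, 43.0 and 29.7 CPM in cattle-yak. It rose by 2.32 ± 0.26 on the log2 scale (SE, edgeR adjusted p = 0.00012) and was called in each of its 17 alternative fits. MAP1LC3A, a related membrane protein, rose by 1.46 ± 0.42 (adjusted p = 0.0378). The MAP1LC3A call was lost without any 1 library other than cattle-yak 3 (adjusted p up to 0.116). It was also lost with the DESeq2 test (adjusted p = 0.108), with limma-voom (0.0902) and with no filter on low counts (edgeR adjusted p = 0.0866). OPTN (-0.37 ± 0.19, adjusted p = 0.218) and SQSTM1 (-0.13 ± 0.15, adjusted p = 0.631), both autophagy adaptors, did not pass.

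**Figure D5:**
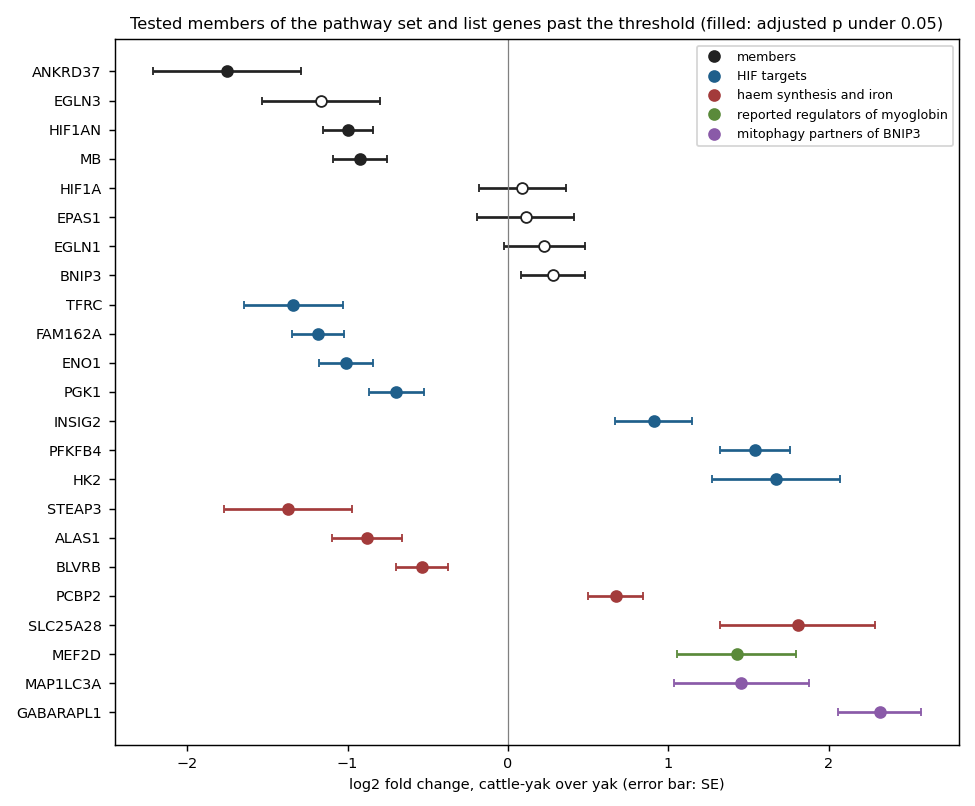
Log2 fold change of cattle-yak over yak (horizontal axis, bars are SE) for the 8 tested genes (black, top) and for 15 called genes of the lists, coloured by list; filled points have an edgeR adjusted p under 0.05. HIF targets and haem and iron genes each have called members on both sides of 0.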

How the data were processed

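The table that the authors deposited gives each transcript's read count in 6 libraries as whole numbers. It also gives deposited CPM values, which match count over library total to within 0.005 and were not used further. Tools listed in the submitters' processing notes are fastp, minimap2 and GSNAP. Their versions, the genome build, the counting software and its strand setting were not given in the sources used here. Reads of overlapping or antisense genes and of gene copies may therefore be shared. Whether reads of Bos taurus origin in cattle-yak were aligned and assigned to transcript models as fully as yak reads was not tested. The table had 179856 transcripts in 31044 genes. A further 132 lines held overflowing annotation text without values, and 61 transcripts without a gene (at most 0.0025% of a library) were left out.

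Counts were summed by gene identifier and tested in R 4.3.3 with edgeR 4.0.16 (filterByExpr with a minimum count of 10, TMM, robust quasi-likelihood fit, no covariate), adjusted over all genes or all transcripts. Transcript usage was tested with diffSpliceDGE on transcripts with at least 5% of their gene's reads. An SE is the size of the log2 fold change over the square root of its F statistic. Shares had exact permutation tests (SciPy 1.17.1). Reads made by PCR and lacking molecular identifiers do not stand for independent molecules, so intervals and floors cover counting error only. The code was tested on simulated counts. Alternatives were DESeq2 1.42.0, limma-voom (limma 3.58.1), other scalings and filters, subsets of transcripts, fits with a replicate block and fits that leave out a library. A fit that leaves an arm with 2 libraries pools the spread.

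The 10 genes, the lists and the tests were chosen with earlier results of these data known. Named from each list were all called genes (up to 8) and the 2 tested genes with the highest mean CPM; some genes of the lists are counted but not reported here by name. Of the marker lists, those for smooth muscle and pericytes had 5 tested genes and none called, adipocytes 2 tested and 1 higher, and cardiac muscle 1 tested and 1 higher.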

Additional observations from a re-analysis of the deposited data

How the results depend on the processing

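MB kept its direction and call in all 17 alternatives that gave a value; with reference transcripts only it had 4 reads and no value. Of 135 alternative values of the 8 tested genes, 120 kept direction and side of the threshold. The number of the 10 genes called was 3, 2 to 4 in the other alternatives, and 1 with reference transcripts only, a fit of fewer genes. HIF1A changed sign with no low count filter (-0.031), and between -0.057 and 0.24 over the fits without 1 library. EPAS1 did so with no filter (-0.023), and between -0.16 and 0.46 without 1 library. Without any filter 31044 genes were fitted and the median log2 fold change was 0.24. The cause of these changes was not tested. Genes called numbered 544 to 997 without 1 library (616 without yak 2, 544 without yak 3, 948 with all). With no filter on low counts 1417 genes were called. MB transcripts called numbered 3 to 6 without 1 library and 3 with library size alone (6 reported). The called list genes numbered 8 to 17 without 1 library (9 without yak 1, 8 without yak 3, 10 without cattle-yak 2). They numbered 21 with no filter on low counts (16 reported). MB usage passed with no minimum share (adjusted p = 0.0176). Of 16 called list genes 12 lost the call in at least 1 alternative, and none changed direction.

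Same-numbered libraries did not deviate together (correlations -0.04, -0.02 and 0.02), and no label pairs them. With the replicate block 890 genes were called, the 10 genes gave 3 calls, MB had -0.94 (edgeR adjusted p = 0.00318), MB transcripts numbered 5 (4 of them among the 6) and list genes 14, with BLVRB, MAP1LC3A and STEAP3 losing their calls and 1 other gaining one. Depth limits VEGFA and VHL, and makes EGLN3, ANKRD37 and HIF1A rest on under 40 reads a library.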

Other observations

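Of the list genes with reads that were too low for the filter, 40 in number, 4 passed when all genes were fitted without it. In that fit 1417 of all 31044 genes passed. Those given here were chosen after their values were seen. ANGPTL4, a lipase inhibitor raised by fasting and hypoxia, had 2, 2 and 0 reads in the yak libraries and 20, 9 and 16 in those of cattle-yak, without overlap (edgeR adjusted p = 0.000568 in the fit without a filter). HBA and HBB, the haemoglobin chains, were lower in cattle-yak (adjusted p = 1.41e-07 and 3.9e-06) on few and uneven reads. The p-values of the fit without a filter cannot be set beside those of the reported fit, since MB had 1.88e-07 in it and 0.00346 in the reported fit. PDK1, a kinase that restrains pyruvate dehydrogenase, had 6, 4 and 7 reads in the yak libraries and 2, 0 and 1 in those of cattle-yak and did not pass there.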
